A study of Danio rerio with 12 samples.

Results

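The guanylate cyclase activator genes encode the calcium sensors that photoreceptors use to recover from light. Their transcripts were measured in whole zebrafish larvae after treatment with drugs that activate LXR, the liver X receptor, which senses oxysterols and turns on genes of lipid metabolism. A probe belonged to the family if its RefSeq accession is listed for a gene whose symbol begins with guca1. The rule uses no measured value, but the family was chosen with earlier results of these data known. The rule found 6 genes of the 12858 that could be named on the array, with 8 of its 43603 probes, and all 8 probes could be tested. The genes are guca1aa, also named guca1a or gcap1 (probe A_15_P103716), guca1b (gcap2, A_15_P170106), guca1c (gcap3, 2 probes), guca1d (gcap4, A_15_P196291), guca1ab.1, also named guca1e or gcap5 (2 probes), and guca1g (gcap7, A_15_P193906). Larvae were of the wild-type WIK strain, carried no engineered allele and were kept in pools of 30 per well in 3 mL of embryo medium. From day 4 after fertilization they received T0901317 (2 mM as labelled), GW3965 (1 mM as labelled) or the vehicle DMSO alone, and all groups had 0.1% DMSO. The treatments were renewed after 24 h and RNA was taken on day 6, so eye RNA was a part of the RNA of the whole body.

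In a photoreceptor, light leads to the breakdown of cyclic GMP, channels in the plasma membrane close and calcium in the outer segment falls. Guanylate cyclase activating proteins (GCAPs) then lose calcium, bind magnesium and switch on the membrane guanylate cyclases, which restore cyclic GMP and the dark state. In calcium-bound form they hold the cyclases back, and in human, dominant mutations of the GCAP1 gene cause cone and cone-rod dystrophy. Mammals make GCAP1 and GCAP2 in rods and cones, human retina has a cone form, GCAP3, and fish carry further members.

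Each group had 4 arrays (Agilent, 1 colour), 1 per RNA pool, which the design text calls biological replicates. The study's design text leaves out T0901317 replicate 2, so 3 T0901317, 4 GW3965 and 4 DMSO arrays entered every test. The left-out array stood apart. On it 89.8% of the probes were well above background, against 78.8% to 83.2% on the other 11, and its lowest signal well above background was 22.0 intensity units, against 6.99 to 8.63. The 75th percentile of the signal lay between 332 and 390 intensity units on the 11 arrays, and arrays of 1 group correlated at 0.987 to 0.994 across probes. Each group lay on 1 slide of its own, so treatment and slide cannot be told apart in any comparison. The number of arrays limits the precision. As a check of the treatments, 8 of 12 measured LXR target genes were higher than in DMSO under each agonist. They were abcg1, mylipa, srebf1, scd, pltp, nr1h3, cyp7a1 and the fatty acid desaturase gene fads2, which had the largest log2 difference of the 12 (4.14 ± 0.11 for T0901317 and 3.96 ± 0.11 for GW3965). Between the agonists, srebf1 was called among the 12 (0.63 ± 0.14 higher in T0901317 larvae). Opsin RNA was present in all groups. The 7 opsin genes that passed the filter (well above background on at least 3 arrays) were so on all 11. The other 2 of 9 opsin genes on the array did not pass it. Together with genes for transducin, cyclic GMP phosphodiesterase, channels and the shut-off of the light response, 34 genes passed, all of them on all 11 arrays. These lists were made by function, and whether each gene is particular to photoreceptors was not examined.

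The family did not move as a block. Under T0901317, transcripts of guca1d and guca1g were lower than in DMSO larvae, and no member passed the test as higher. Under GW3965, transcripts of guca1d and guca1g were lower again, guca1ab.1 was lower by 1 of its 2 probes, and guca1aa was higher. Among the arrays in the fit, the probe of guca1b was well above background on the DMSO arrays alone. It entered the test through them, so its call could hardly fall the other way and is no support for a change of the family. The cone member guca1c had negative values under both agonists that did not pass. Over the 7 probes without guca1b, 2 were called lower and 0 higher for T0901317 (median log2 difference -0.56), and 3 lower and 1 higher for GW3965 (median -0.36). With guca1b, 3 of 8 probes were called lower and 0 higher for T0901317 (adjusted p under 0.05, limma), where 1.12% of all 36737 tested probes were called lower, 1.42% higher and 2.54% in either direction. For GW3965, 4 of 8 were called lower and 1 higher, where 4.24% of all probes were called lower, 1.14% higher and 5.38% in either direction. At an unadjusted p under 0.05, 5 probes were lower and 1 higher for T0901317, where 5.86% of all probes were lower, 8.53% higher and 14.4% in either direction. For GW3965, 6 were lower and 1 higher at that threshold, where 11.8% of all probes were lower, 7.04% higher and 18.9% in either direction. The median log2 difference of the 8 probes was -0.57 for T0901317 and -0.37 for GW3965, against 0.03 and 0.00 for all probes tested. The groups did not overlap for 5 probes lower and 1 higher under T0901317 (4.99% and 7.37% of all probes, 12.4% together), and for 4 lower and 1 higher under GW3965 (8.36% and 5.48%, 13.8% together). Each count of lower probes and each median over the 8 probes includes guca1b, which is no support here. The unadjusted counts of lower probes also hold both probes of guca1c, which measure 1 gene. So does the T0901317 count of lower probes without overlap. Both agonists were set against the same 4 DMSO arrays. In RNA of whole larvae, fewer photoreceptors and less RNA per photoreceptor cannot be told apart.

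**Figure D1:**
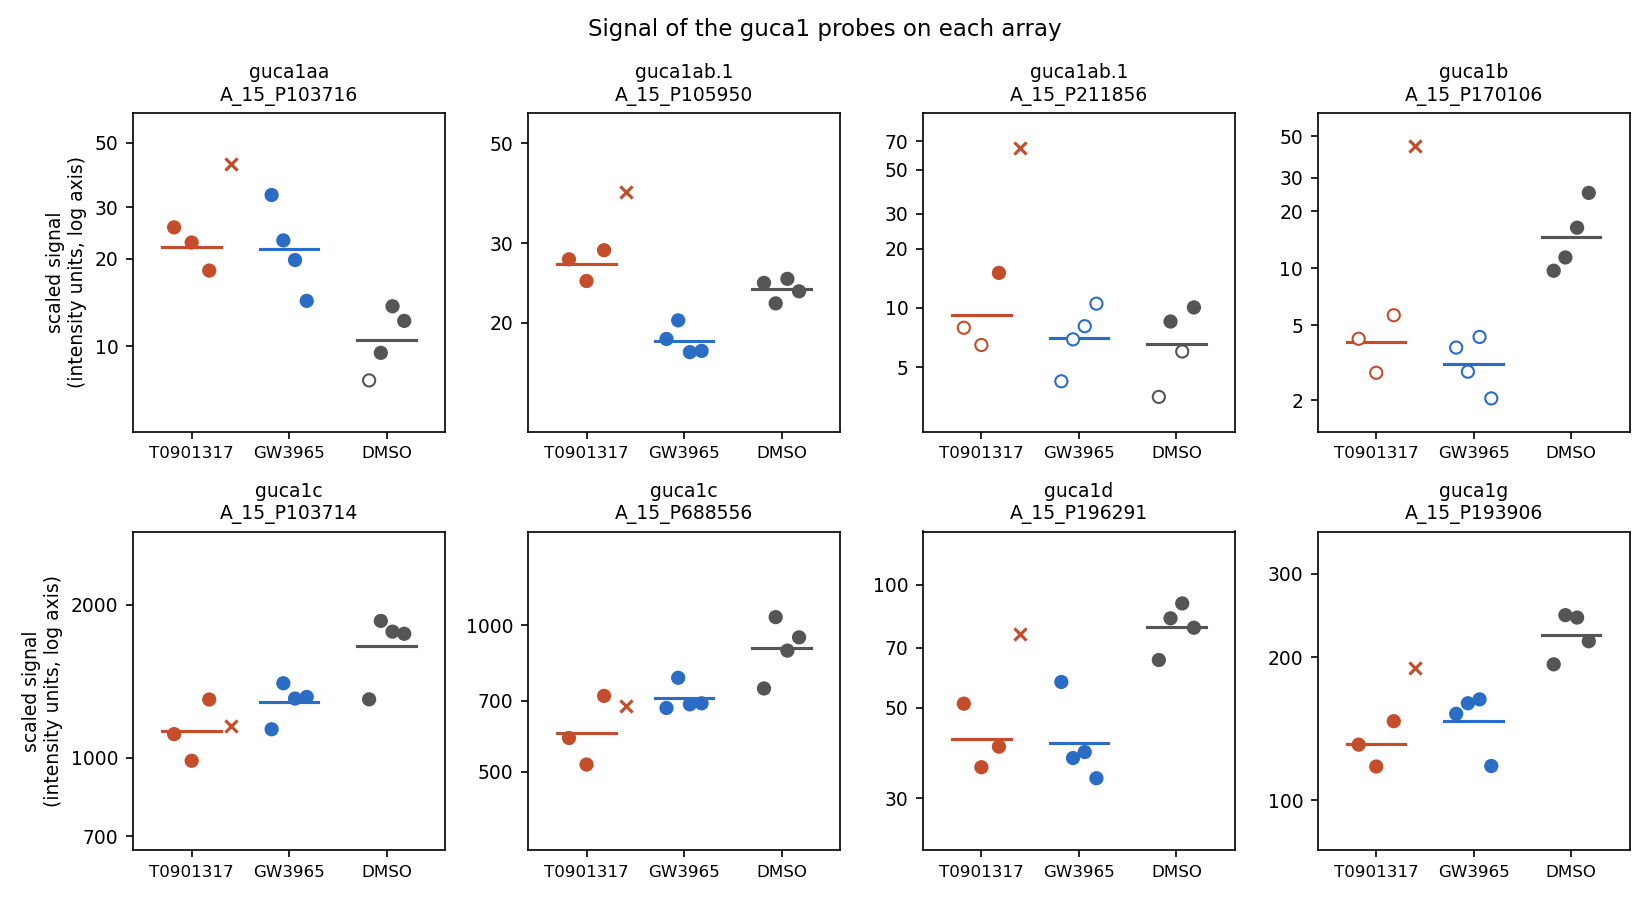
Signal of the 8 guca1 probes (intensity units brought to a common 75th percentile, log axes that differ between panels) in T0901317, GW3965 and DMSO larvae. Each point is 1 array, filled where the probe was well above background and open where it was not. Lines are geometric means, and the cross is the left-out T0901317 replicate 2. The guca1b probe is filled on the 4 DMSO arrays and open on the 3 T0901317 and 4 GW3965 arrays.

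Signals below are given in intensity units after each array was brought to the same 75th percentile (361 units). Errors of log2 differences are standard errors of the fit. The normexp background correction, an alternative setting, adds an offset of 50 units to each signal. This alone shrinks log2 differences of dim probes, so smaller normexp values there do not show that a difference was absent. The gene guca1b encodes GCAP2. Its signal was 4.23, 2.79 and 5.64 in T0901317 larvae (replicates 1, 3 and 4), 3.80, 2.83, 4.33 and 2.05 in GW3965 larvae, and 9.69, 11.4, 16.4 and 25.0 in DMSO larvae. All 7 agonist arrays lay below all 4 DMSO arrays, and DMSO replicate 4 was more than 2-fold above DMSO replicates 1 and 2.

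The probe was well above background on all 4 DMSO arrays and on 0 of the 3 T0901317 and 0 of the 4 GW3965 arrays, so the agonist groups have only an upper bound. Set against the lowest signal well above background on each agonist array, guca1b was nominally at least 1.75-fold lower under T0901317 (adjusted p of the fit 0.0243, limma). Under GW3965 it was nominally at least 1.80-fold lower (adjusted p = 0.00355). The bound compares observed means and holds no sampling error. It is approximate, since that lowest signal is taken over all probes. On GW3965 replicate 4 it was 8.63 unscaled units, yet A_15_P211856 was not well above background there at 10.4. The probe of guca1b passed the filter through the DMSO arrays alone, so these adjusted p-values are no support for a change.

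For T0901317 the call of guca1b was lost on leaving out replicate 1 or 3 of T0901317 or replicate 3 of DMSO (adjusted p 0.0663 to 0.0803). It was also lost in 4 of 13 other settings. These were normexp background correction (adjusted p = 0.224), the left-out array put back (adjusted p = 0.548), where guca1b read 44.1, a block for the replicate number (which gave adjusted p = 0.0522) and a fit of only the 2 groups (adjusted p = 0.0546). For GW3965 the call ended with the left-out array put back (adjusted p = 0.169).

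The gene guca1aa, which encodes GCAP1, went the other way. Its signal was 25.6, 22.7 and 18.2 in T0901317 larvae, 33.1, 23.1, 19.8 and 14.3 in GW3965 larvae, and 7.63, 9.49, 13.7 and 12.2 in DMSO larvae. All 7 agonist arrays lay above all 4 DMSO arrays, with GW3965 replicate 4 (14.3) close to DMSO replicate 3 (13.7). The probe was well above background on 10 of the 11 arrays and not on DMSO replicate 1. The log2 difference was 1.06 ± 0.27 for T0901317, which did not pass (adjusted p = 0.0739), and 1.04 ± 0.25 for GW3965, which did (adjusted p = 0.0388). The difference between the agonists was 0.03 (95% interval -0.58 to 0.63, adjusted p = 0.988).

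The GW3965 call of guca1aa was lost without DMSO replicate 1, 2 or 4, T0901317 replicate 3, or GW3965 replicate 1, 2 or 3 (adjusted p 0.0535 to 0.0949), and in 4 of 13 other settings (0.0578 to 0.125). With normexp it was 0.27 (adjusted p = 0.0488), and the T0901317 value was 0.22 (adjusted p = 0.197). The T0901317 value passed without GW3965 replicate 1 or 4 (adjusted p 0.0463 to 0.0471).

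GCAP3 is the product of guca1c. The probe A_15_P103714 gave 1113, 986 and 1302 in T0901317 larvae, 1138, 1401, 1308 and 1317 in GW3965 larvae, and 1303, 1860, 1771 and 1754 in DMSO larvae. The probe A_15_P688556 gave 587, 517 and 716 in T0901317 larvae, 676, 780.2, 688 and 691 in GW3965 larvae, and 742, 1040, 887 and 945 in DMSO larvae. On both probes T0901317 replicate 3 was the lowest array and DMSO replicate 1 the lowest of its group. The T0901317 arrays stayed below every DMSO array, for A_15_P103714 only just (1302 against 1303), and GW3965 overlapped with DMSO through DMSO replicate 1.

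Neither probe of guca1c passed. The log2 difference was -0.56 ± 0.14 (A_15_P103714, adjusted p = 0.0681) and -0.58 ± 0.13 (A_15_P688556, adjusted p = 0.0508) for T0901317. For GW3965 it was -0.36 ± 0.13 (adjusted p = 0.150) and -0.34 ± 0.12 (adjusted p = 0.160). On DMSO replicate 1 the median of the 34 phototransduction genes was 2.26 log2 units above the 75th percentile of the array, against 2.63 to 2.69 on the other DMSO arrays, and its part in these values was not tested. Without that array, both probes passed for T0901317 (-0.67, adjusted p = 0.0182, and -0.67, adjusted p = 0.0257), and A_15_P103714 passed for GW3965 (-0.48, adjusted p = 0.0382). Without T0901317 replicate 4, A_15_P688556 passed for T0901317 as well (adjusted p = 0.0364). In 3 of 13 other settings for A_15_P103714 and 5 of 12 for A_15_P688556 the T0901317 value passed (adjusted p 0.0195 to 0.0493), and with array weights both probes passed for GW3965 (adjusted p 0.0356 and 0.0409).

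Of the members found beside these in fish, guca1d was lower under both agonists. Its signal was 51.1, 35.7 and 40.1 in T0901317 larvae, 57.8, 37.6, 38.9 and 33.6 in GW3965 larvae, and 65.4, 82.7, 89.9 and 78.4 in DMSO larvae. No agonist array in the fit reached the lowest DMSO array, and GW3965 replicate 1 came closest. On the left-out T0901317 replicate 2, guca1d read 75.6, above DMSO replicate 1 (65.4). The log2 difference was -0.91 ± 0.19 for T0901317 (adjusted p = 0.0326) and -0.94 ± 0.18 for GW3965 (adjusted p = 0.0116). With normexp the values were -0.43 (adjusted p = 0.0169) and -0.47 (adjusted p = 0.00383). For GW3965 the call stayed without any 1 of the 11 arrays (highest adjusted p 0.0404) but was lost in 3 of 14 other settings (0.0671 to 0.0899). For T0901317 it was lost without DMSO replicate 2, 3 or 4, T0901317 replicate 3 or 4, or GW3965 replicate 3 (adjusted p 0.0506 to 0.107), and in 5 of 14 other settings (0.0501 to 0.203).

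The same held for guca1g, which read 131, 118 and 147 in T0901317 larvae, 152, 160.0, 163 and 118 in GW3965 larvae, and 193, 245, 242 and 216 in DMSO larvae. The highest agonist array in the fit (163) stayed below the lowest DMSO array (193), which was again replicate 1. The log2 difference was -0.77 ± 0.13 for T0901317 (adjusted p = 0.0150) and -0.60 ± 0.12 for GW3965 (adjusted p = 0.0195), which is 0.588 and 0.659 times the level in DMSO larvae. Leaving out replicate 1 or 3 of T0901317 or replicate 2 of DMSO took the T0901317 call away (adjusted p 0.0505 to 0.0605), and leaving out DMSO replicate 2 or 3 that of GW3965 (adjusted p 0.0559 to 0.0592). Of 14 other settings, 2 ended the T0901317 call of guca1g (adjusted p 0.0832 to 0.0948) and 3 that of GW3965 (adjusted p 0.0635 to 0.188). With the left-out array put back, guca1d and guca1g passed for neither agonist (adjusted p 0.0688 to 0.203), although guca1g on that array (190.2) was also below the 4 DMSO arrays.

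For guca1ab.1, 1 probe was called between the agonists and the other was not. On A_15_P105950 its signal was 27.7, 24.8 and 29.0 in T0901317 larvae, 18.4, 20.3, 17.2 and 17.3 in GW3965 larvae, and 24.5, 22.1, 25.0 and 23.5 in DMSO larvae. The 4 GW3965 arrays lay below all the others, while T0901317 and DMSO overlapped at T0901317 replicate 3. The log2 difference was 0.57 ± 0.09 between T0901317 and GW3965 (adjusted p = 0.00361), -0.38 ± 0.08 between GW3965 and DMSO (adjusted p = 0.0250) and 0.19 ± 0.09 between T0901317 and DMSO (adjusted p = 0.380). In the comparison of the agonists 1 of 8 guca1 probes was called higher and 0 lower, where 4.28% of all probes were called higher, 0.114% lower and 4.4% in either direction (limma). At an unadjusted p under 0.05 the members' counts were the same, where 10% of all probes were higher, 2.34% lower and 12.3% in either direction. A_15_P105950 was also the 1 probe of 8 whose agonist groups did not overlap, where 9.46% of all probes were apart as higher, 4.13% as lower and 13.6% together. A count of 1 in 8 is near these shares and shows nothing particular to the family.

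The second guca1ab.1 probe gave no such difference. On A_15_P211856 the signal was 7.94, 6.49 and 15.0 in T0901317 larvae, 4.25, 6.94, 8.08 and 10.5 in GW3965 larvae, and 3.55, 8.54, 6.02 and 10.1 in DMSO larvae. It was well above background on 3 arrays, T0901317 replicate 4 and DMSO replicates 2 and 4, and all groups overlapped. Its log2 difference between T0901317 and DMSO was 0.49 ± 0.41 (adjusted p = 0.689). With no GW3965 array well above background, no difference is given for GW3965.

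Dim probes as a group were lower in GW3965 larvae. Over the 6462 probes with a mean signal of 10 to 30 units, the range that holds A_15_P105950, the median log2 difference between T0901317 and GW3965 was 0.12 and 8.06% of them were called higher. Between GW3965 and DMSO the same probes had a median of -0.08 and 5.45% were called lower. The part of this shift in the result for guca1ab.1 was not tested. With normexp the difference between the agonists on A_15_P105950 was 0.15 (adjusted p = 0.453) and the GW3965 difference from DMSO was -0.08 (adjusted p = 0.627). The normexp offset of 50 units is larger than the signals of this probe and shrinks both values. Their smaller size there does not show that a difference was absent. Neither value passed with normexp, and the reason for that was not tested. The call between the agonists stayed without any 1 array (adjusted p 0.00409 to 0.0216) and was lost in 2 of 13 other settings. That of GW3965 against DMSO ended without DMSO replicate 1, 3 or 4 or GW3965 replicate 1, 3 or 4 (adjusted p 0.0548 to 0.0777). It was also lost in 6 of 13 other settings (adjusted p 0.0795 to 0.627). Quantile normalization, trend and robust, and the left-out array put back were among them. Without replicate 4 in all groups both calls ended (adjusted p 0.0844 between the agonists and 0.131 against DMSO).

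**Figure D2:**
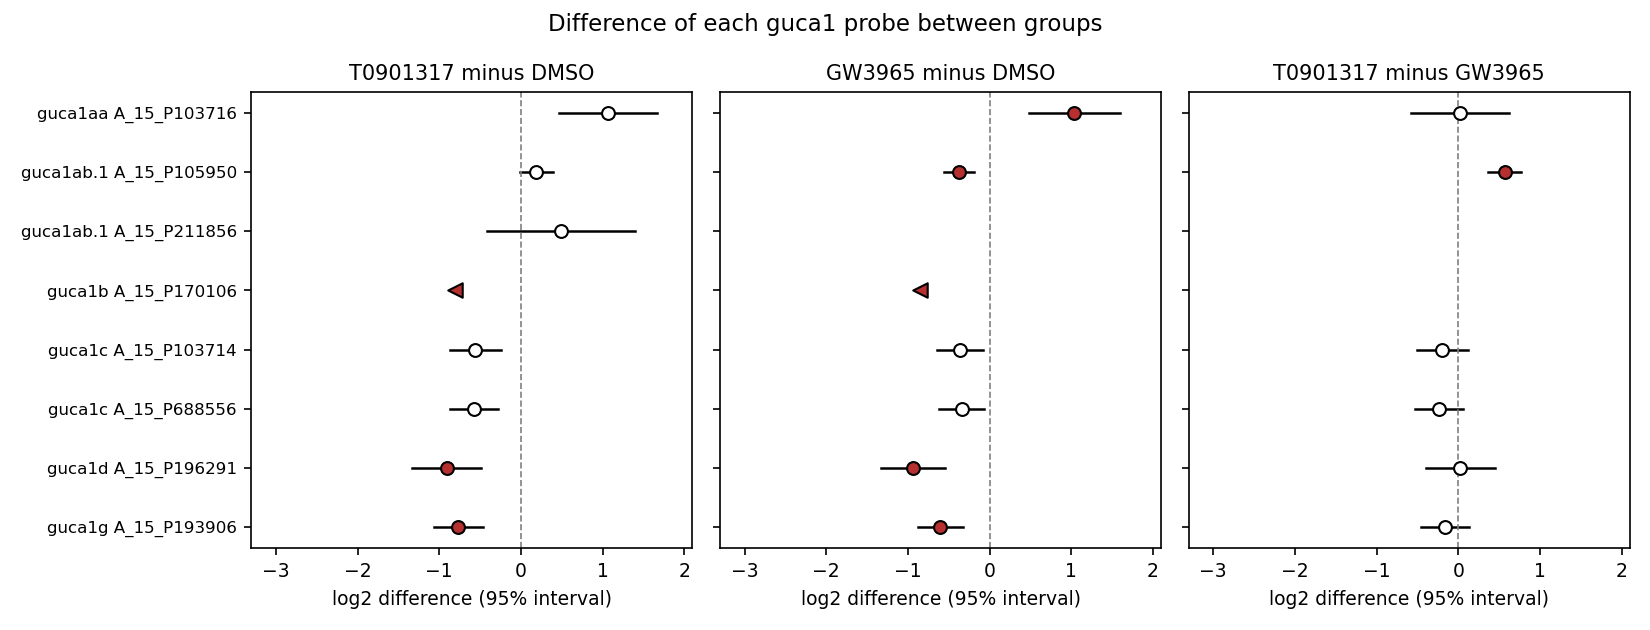
Log2 difference of each guca1 probe between T0901317 and DMSO (left), GW3965 and DMSO (middle), and T0901317 and GW3965 (right). Points are differences of group means from the fit to 3 T0901317, 4 GW3965 and 4 DMSO arrays, bars are 95% intervals, and filled symbols had an adjusted p under 0.05. Triangles mark the approximate bounds of guca1b (-0.81 and -0.85). A probe with no well-measured array in a group otherwise has no symbol for that pair. Between the agonists A_15_P105950 of guca1ab.1 (0.57) is the filled point.

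For the other 7 probes no difference between T0901317 and GW3965 passed, and the labelled doses of the agonists differ. Since guca1b was below background in both agonist groups, no difference between them is given for it. The 95% interval ran from -0.39 to 0.45 for guca1d and from -0.46 to 0.13 for guca1g. For guca1c it ran from -0.50 to 0.12 on A_15_P103714 and from -0.53 to 0.06 on A_15_P688556. By group mean, guca1c and guca1g were lowest in T0901317, next in GW3965 and highest in DMSO larvae, and T0901317 and GW3965 overlapped. In guca1d the agonist means were closer to each other than to the DMSO mean.

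The cyclases that GCAPs act on were measured by few probes. The cyclase gene gucy2d had a log2 difference of -0.25 ± 0.16 for T0901317 (adjusted p = 0.564) and -0.14 ± 0.15 for GW3965 (adjusted p = 0.671) on A_15_P113391. Its other probe gave 0.15 and 0.07 (adjusted p 0.701 and 0.824). A second cyclase gene, gc2, was not well above background on any of the 11 arrays. Among 4 other calcium sensors of photoreceptors 1 was lower under T0901317 and 0 under GW3965. It was rcvrna, a gene of recoverin, which holds back the kinase that shuts off opsins (-0.58 ± 0.11, adjusted p = 0.0263, for T0901317, and -0.34 ± 0.11, adjusted p = 0.0976, for GW3965).

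Of the 34 phototransduction genes outside the family, each by its brightest probe, 0 rose and 1 fell under T0901317, with 25 negative values and a median of -0.22. The gene that fell was the rhodopsin-like opsin gene rhol (-0.69 ± 0.16, adjusted p = 0.0457). Its other probes did not pass (-0.70, adjusted p = 0.0903, and -0.28, adjusted p = 0.380). Under GW3965, 1 rose and 0 fell, with 22 negative values and a median of -0.08. The gene that rose was the green cone opsin gene opn1mw1 (0.50 ± 0.11, adjusted p = 0.0265), whose other probe did not pass (0.43, adjusted p = 0.0831). These counts depend on the probe. A dimmer rho probe, A_15_P757506, was called lower for T0901317 (-1.12, adjusted p = 0.0202) and GW3965 (-1.51, adjusted p = 0.00151). The other rho probes did not pass (-0.62 to -0.21 for T0901317 and -0.46 to -0.06 for GW3965). At an unadjusted p under 0.05, 1 of the 34 was higher and 11 lower for T0901317, and 2 higher and 4 lower for GW3965. By function, the median was 0.05 and 0.14 for 7 opsins, -0.25 and 0.01 for 8 transducin subunits, -0.21 and -0.07 for 4 phosphodiesterase subunits, -0.04 and -0.07 for 2 channel and exchanger genes, and -0.42 and -0.16 for 13 shut-off genes, for T0901317 and GW3965 in that order.

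In this ranking each of the 34 genes has the value of its brightest probe. By that value, guca1d and guca1g lay below all 34 genes under both agonists, a rank that was not tested. For T0901317, the gaps of guca1d (-0.91 ± 0.19) and guca1g (-0.77 ± 0.13) to opn1sw1 (-0.75 ± 0.18) were within these errors. For GW3965, the gap of guca1g (-0.60) to grk7a (-0.46 ± 0.18) was within the error of grk7a. The dimmer rho probe A_15_P757506 lay lower than both members (-1.12 for T0901317 and -1.51 for GW3965). The bound of guca1b (-0.81 and -0.85) was not ranked with them, since its probe passed the filter through the DMSO arrays alone. Of the 34, the lowest were the ultraviolet opsin gene opn1sw1 (-0.75) for T0901317 and the cone opsin kinase gene grk7a (-0.46) for GW3965. The value of guca1aa lay above all 34, whose highest was opn1mw1 under both (0.39 and 0.50). Outside the 34, other eye genes lay as low as guca1g. The outer segment gene prph2b was at -0.81 ± 0.22 for T0901317 and -0.61 ± 0.20 for GW3965 (adjusted p 0.0939 and 0.130), and the homeobox gene rx2 was at -0.86 for T0901317. In a further fit each array was scaled to the median of the 34, a setting chosen after the data were seen. It moved the median of all probes to 0.29 for T0901317 and 0.15 for GW3965. The values of all probes shifted up with it, and 94.9% of the probes called for T0901317 were then higher, against 56.1% before. The value of guca1aa became 1.33 for T0901317 (adjusted p = 0.0293) and 1.18 for GW3965 (adjusted p = 0.0495), which holds this common shift. No value of guca1b is given in this scaling, since it has only a bound. Neither guca1d (-0.64, adjusted p = 0.0975, and -0.79, adjusted p = 0.0671) nor guca1g (-0.50, adjusted p = 0.0948, and -0.46, adjusted p = 0.188) passed in this scaling, and guca1c was at -0.29 and -0.31 for T0901317 and -0.22 and -0.20 for GW3965 (adjusted p 0.148 to 0.436).

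**Figure D3:**
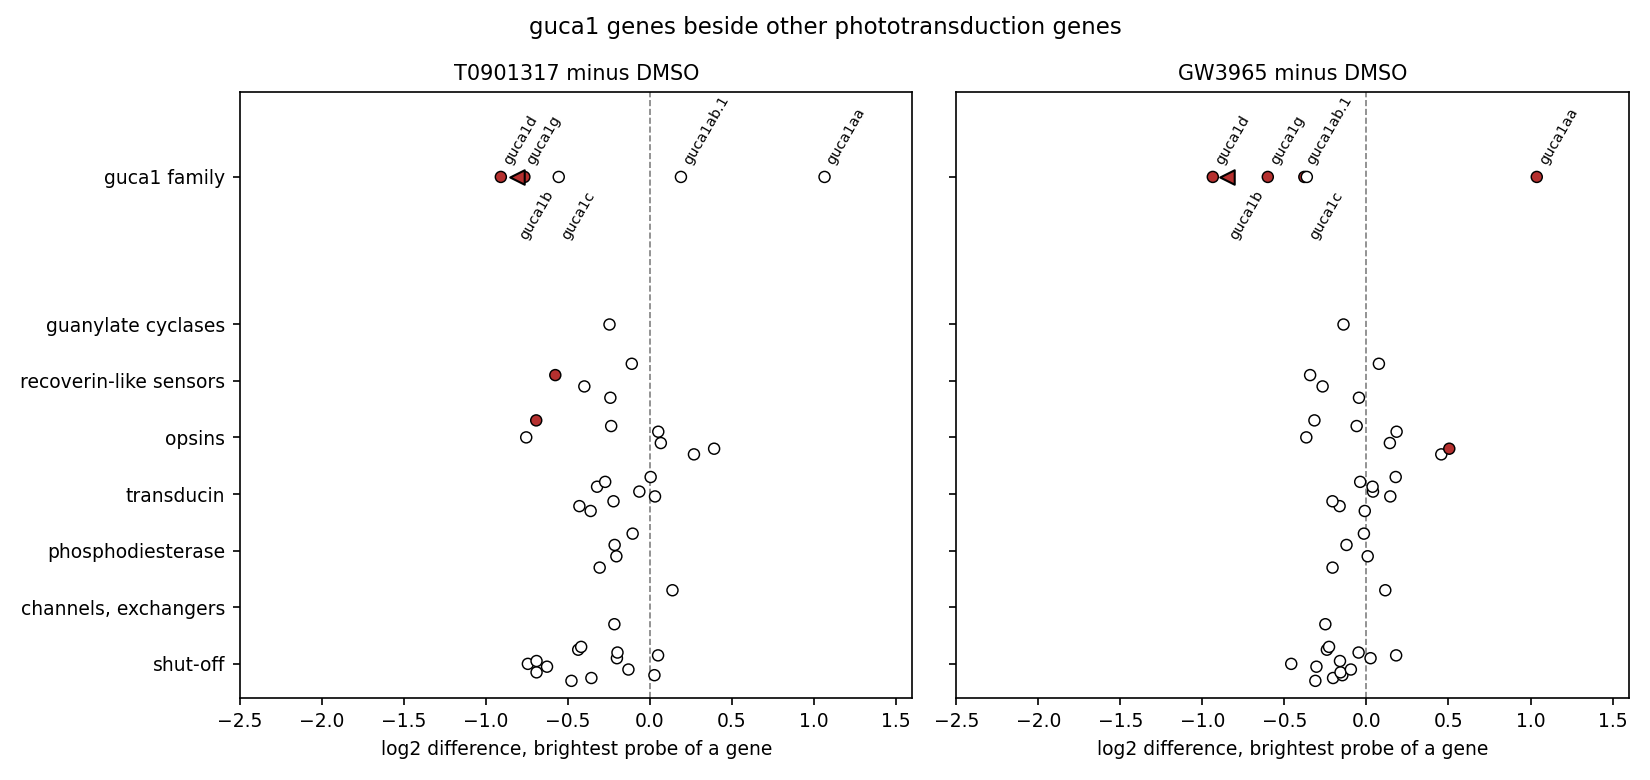
Log2 difference from DMSO of the guca1 genes (top row, named) and of other phototransduction genes (rows by function, 1 point per gene, brightest probe) for T0901317 (left) and GW3965 (right). Filled symbols had an adjusted p under 0.05, and the triangle is the bound of guca1b (-0.81 and -0.85). In both panels guca1d and guca1g lie left of all points of opsin, transducin, phosphodiesterase, channel and shut-off genes, and guca1aa lies to the right of them. For T0901317 the gaps of guca1d and guca1g to the nearest point, opn1sw1, are within the standard errors. A dimmer rho probe, A_15_P757506, is not drawn (-1.12 for T0901317 and -1.51 for GW3965).

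Markers of neighbouring cells were at their own values. In the lens list 2 of 16 genes rose and 0 fell under T0901317, and 1 rose and 1 fell under GW3965. They were the crystallin genes crygs2 (3.21 ± 0.18 and 2.43 ± 0.16) and crygs3 (1.09 ± 0.14 and -1.03 ± 0.13), and both were higher in T0901317 than in GW3965 larvae (0.78 ± 0.18 and 2.12 ± 0.14). Of 12 outer segment genes, 15 visual cycle genes and 6 pigment cell genes, 0 were called under either agonist. At an unadjusted p under 0.05, T0901317 had 0, 1 and 2 of them higher and 3, 2 and 0 lower, and GW3965 had 0, 3 and 0 higher and 2, 1 and 0 lower. Of 20 genes of other retinal neurons and glia, 0 were called under T0901317 and 1, the apolipoprotein E gene apoeb, rose under GW3965 (0.52 ± 0.09, adjusted p = 0.00583). Among 7 tested genes of the pineal gland, which also holds photoreceptors, aanat2, the gene of the enzyme that limits melatonin synthesis, rose under both agonists (1.81 ± 0.10 and 1.78 ± 0.09). Of 13 photoreceptor transcription factor genes, rx2, which encodes a retinal homeobox factor, fell under T0901317 (-0.86 ± 0.15, adjusted p = 0.0132), and 0 were called under GW3965 (rx2 -0.52 ± 0.14, adjusted p = 0.0551). The part of these genes' cells in the guca1 values was not tested.

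**Figure D4:**
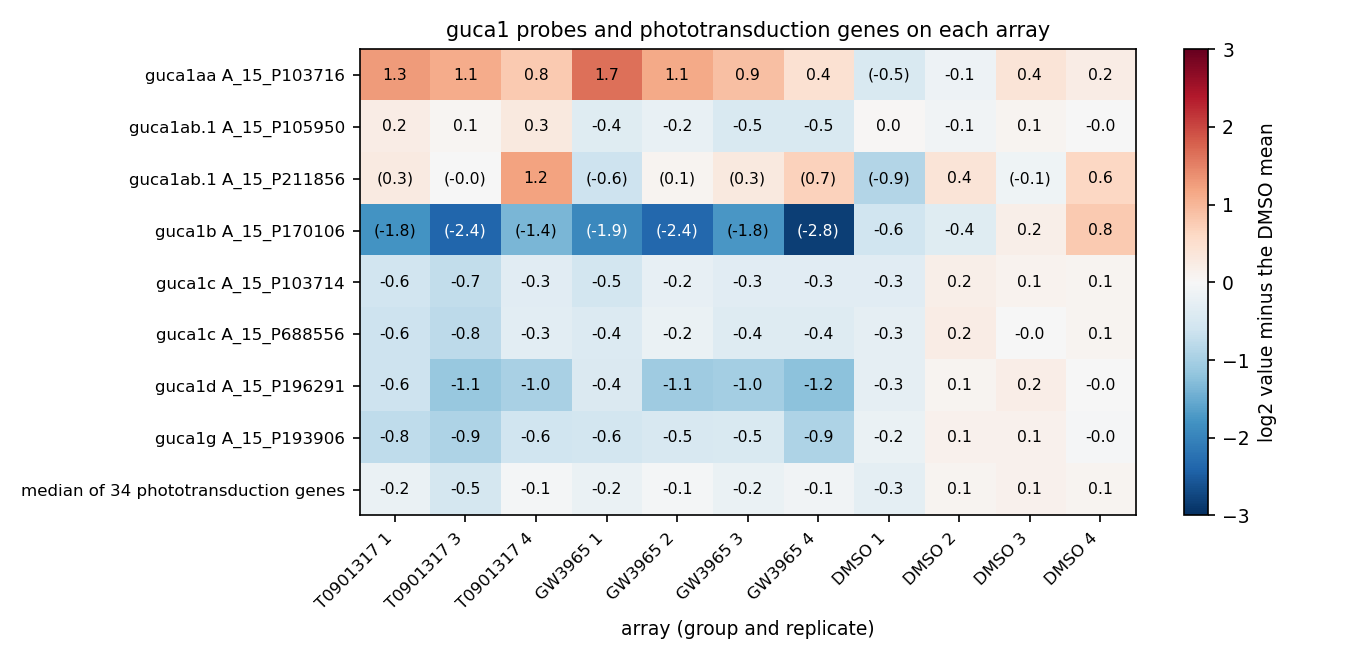
Log2 value of each guca1 probe on each array minus its DMSO mean, with T0901317 arrays left, GW3965 in the middle and DMSO right, and the median of 34 phototransduction genes in the bottom row. Blue cells are below the DMSO mean and red cells above it, and values in parentheses are of probes not well above background on that array. The bottom row is lowest on T0901317 replicate 3 (-0.53), the array on which both guca1c probes are lowest too.

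Members differed in how they varied from array to array. The 2 probes of guca1c followed each other (Pearson r 0.972 over the 11 arrays, and 0.922 after group means were removed). The probe of guca1b and A_15_P211856 of guca1ab.1 were left out here, since they were not well above background on 7 and 8 of the 11 arrays. Over the 11 arrays guca1d and guca1g correlated at 0.881, and at 0.503 after group means were removed. The values of guca1aa ran against those of guca1c, guca1d and guca1g over the 11 arrays (-0.64 to -0.52). Within groups guca1aa and guca1d varied in the same direction (0.820). The r of guca1aa within groups was lower with guca1g (0.455) and with the 2 probes of guca1c (3.92e-05 and 0.029). These arrays share the group differences and the scaling, and the correlations describe them only.

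The genes whose values over the 11 arrays were most like each member were sought among 22433 named probes by Pearson r. For guca1c on A_15_P103714 they were rhol (0.986), opn1sw1 (0.974) and grk7a (0.964), all from the phototransduction lists, and on A_15_P688556 rx2 (0.964) and opn1sw1 (0.960). On each probe 2 of the first 5 genes were on no list of eye genes. For guca1d the first were unc119a2 (0.957), from the list of outer segment genes, and znf1137 (0.957), and 4 of its first 5 genes, znf1137 among them, were on no such list. For guca1g the first were the fatty acid elongase gene elovl8a (0.963) and the complexin gene cplx4a (0.962), and for guca1aa the phospholipid phosphatase gene plpp5 (0.937) and the ubiquitin ligase gene rnf145b (0.937), none of them on a list of eye genes used here. For guca1ab.1 on A_15_P105950 the first were olfml3a (0.973) and adm2a (0.972), followed among others by the lens crystallin gene crygs3 (0.962).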

How the data were processed

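RNA of 12 pools was hybridised to 1-colour Agilent arrays. The deposited values are linear intensity units (processed signal), background-subtracted by the authors with Agilent Feature Extraction 11.0.1.1, per the submitters' processing notes and the file headers. No scaling between arrays was applied. Here spots of a probe were averaged without outlier spots, log2 transformed and scaled to each array's 75th percentile. RefSeq accessions named 25069 probes of 12858 genes. Names alone came from RefSeq's GRCz12tu gene table, since the array design is on Zv8, per the file headers. Probes well above background on at least 3 of 11 arrays were fitted on group means by lmFit and eBayes (limma 3.58.1, R 4.3.3) with 8 residual and 2.80 prior degrees of freedom and Benjamini-Hochberg values over 36737 probes and 95% intervals. Gene lists (16) use the brightest probe per gene. The text names every guca1 probe, the called members of each list, a few more with small p or at the end of a range, and some of the 5 most alike genes. The naming of prph2b and of the rho probe A_15_P757506 followed their values. The members, lists and tests were chosen with earlier results of these data known. The fit was tested on simulated data. Arrays of the same replicate number deviated together in 3 of 3 pairs of T0901317 and GW3965 (r 0.164 to 0.537), which the labels do not explain. Pairs of unlike number in these groups ranged from -0.329 to 0.201, so some exceeded the lowest same-numbered pair. For T0901317 and DMSO 2 of 3 pairs exceeded 0.1, and for GW3965 and DMSO 3 of 4, so these were not taken as paired. The main fit was unpaired for T0901317 and GW3965 too, and their block is given as an alternative. Alternatives were normexp (offset 50), other scalings, filters and probe summaries, the left-out array, the replicate number as a block, other eBayes settings, array weights and leaving out each array. Sequences of the probes and of the genes were not analysed here.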

Additional observations from a re-analysis of the deposited data

Results flagged for a closer look

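In 16 groups of 4 arrays of the guca1 probes, 2 held an array set apart from the others, and chance alone flags about 1 in 20 groups. On A_15_P103714 of guca1c, DMSO replicate 1 lay below the other 3 DMSO arrays by 0.836 of the group's range. On A_15_P688556 of guca1c, GW3965 replicate 2 lay above the other 3 GW3965 arrays by 0.847 of the range.

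On T0901317 replicate 2, the array that the design text leaves out, 4 of the 8 probes read above the highest DMSO array. The excess was 1.62 log2 units for guca1aa, 0.82 for guca1b, and 0.64 and 2.69 for the guca1ab.1 probes A_15_P105950 and A_15_P211856. The lowest signal well above background on that array was 22.0 unscaled intensity units, and guca1b read 40.5 unscaled units there. After scaling, guca1b read 44.1 on it, against 2.79 to 5.64 on the other T0901317 arrays.

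The difference between T0901317 and GW3965 on A_15_P105950 of guca1ab.1 passed its own test (0.57 log2 units higher in T0901317 larvae). All 3 T0901317 arrays lay above all 4 GW3965 arrays.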

How the results depend on the processing

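Of 561 values of guca1 probes under alternatives, 469 kept direction and side of the threshold, 57 lost the call, 17 gained one and 18 changed sign, and none of those that changed sign had been called. The left-out array put back took the guca1 calls to 0 against DMSO for each agonist and all calls to 613 (T0901317) and 919 (GW3965).

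For T0901317 all calls were 933, but 610 with the brightest probe and 563 with the mean over probes (fewer features tested), 462 in a fit of only the 2 groups, and 303 without replicate 4 in all groups. Leaving out 1 array gave 413 to 894. The guca1 calls were 3, but 5 with trend and robust and 0 to 5 without 1 array. For GW3965 all calls were 1976, but 1237 with the mean over probes, 380 with scaling to the phototransduction genes and 997 without replicate 4. They were 1213 to 1938 without 1 array. The guca1 calls were 5, but 3 with a filter on all arrays and 2 with scaling to the phototransduction genes. They were 2 without replicate 4 and 3 to 5 without 1 array. The probes of guca1aa and guca1b did not pass the filter on all arrays, so they were not tested there. Between the agonists all calls were 1616, but 988 with normexp and 865 without replicate 4, and 1056 to 1595 without 1 array. The single guca1 call there became 0 with normexp, with the mean over probes and without replicate 4, and remained 1 in each fit without 1 array. The mean over probes joined A_15_P105950 with A_15_P211856. Beyond such differences in what was fitted, the cause of these changes was not tested. Scaling to the phototransduction genes moved the share of higher calls from 56.1% to 94.9% for T0901317 and from 21.2% to 42.9% for GW3965.

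With the replicate number as a block, all calls were 929 (T0901317), 2373 (GW3965) and 1592 (between agonists), and guca1 calls were 1, 4 and 1. The 1 left for T0901317 was guca1g (adjusted p = 0.0452), guca1b and guca1d had adjusted p 0.0522 and 0.0614, and for GW3965 guca1aa had 0.0630. Between the agonists, where every same-numbered pair exceeded 0.1, the block changed no guca1 call.

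Between the agonists, signs changed for guca1aa (-0.049 with normexp, -0.17 with quantile normalization, -0.014 with scaling to bright probes, -0.020 with array weights, -0.036 without replicate 4 in all groups, and -0.17 to 0.23 without 1 array). They also changed for guca1d (-0.10 with quantile normalization, -0.013 with scaling to bright probes, -0.039 without replicate 4 and -0.12 to 0.19 without 1 array). The fitted values of A_15_P211856 for GW3965 (-0.15 with array weights, -0.18 to 0.36 without 1 array) also took either sign. So did those of guca1b between the agonists (-0.065 without replicate 4). There whole groups had no array well above background, so these values are no measure of a difference.

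The slide as a block was not run, since each slide holds 1 group. Fits with 1 value per gene gave none for second probes. Signals near background limit guca1b, guca1aa and guca1ab.1. Scaling to the phototransduction genes and leaving out replicate 4 were chosen after the data were seen.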
